A study of Mus musculus with 32 samples.

Results

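The genes described here encode RNA-binding proteins of neuronal transport granules, and comprise 10 of the 44081 genes in the combined 3′UTR count table. They were chosen by name: the fragile X family (Fmr1, Fxr1, Fxr2), the Staufen pair (Stau1, Stau2), the Pur family (Pura, Purb, Purg), and 2 proteins found in the same granules (Caprin1, Syncrip). All 10 were in the table, and all 10 had reads in enough libraries to be tested. In the table of separate 3′ ends they had 50 of 74532 features, of which 19 had enough reads to be tested. All of the neurons came from hippocampi of C57BL/6 mouse embryos at day 18 of gestation and were kept in culture for 15 days without any treatment. From each of 16 single neurons the cell body and its dendrites were aspirated into separate tubes and amplified by the antisense RNA method, giving 32 libraries paired by neuron. Neurons 1 to 4 had 3 rounds of amplification and neurons 5 to 16 had 2 rounds.

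Dendritic mRNAs travel along microtubules in granules in which RNA-binding proteins hold them largely untranslated until they reach a synapse. FMRP, the product of Fmr1, represses translation of many synaptic mRNAs, and its loss causes fragile X syndrome. Staufen proteins bind double-stranded RNA, and Pur proteins are single-stranded nucleic acid-binding proteins that copurify with kinesin-bound granules. The question asked of each gene was whether the relative level of the mRNA that encodes the transport protein differed between dendrites and soma, and with which 3′ ends.

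Reads on 3′UTRs numbered 646521 to 6954420 per dendrite library (median 1605714) and 925525 to 21169974 per soma library (median 6165691). The dendrites of neurons 12, 15 and 16 stood apart from the other 13, with 3794, 1570 and 2485 genes at 10 or more reads and with reads on 5, 4 and 6 of the 10 genes. The share of reads on mitochondrial genes was 2.39% to 35.8% in dendrites and 0.277% to 8.12% in somas. Neuronal markers had reads in every library. The sum over 6 interneuron markers was 1402 to 9717 CPM (counts per 1000000 reads) in dendrites and 1333 to 19640 in somas. That over 6 pyramidal markers was 474.8 to 5360 and 104.7 to 2758. Map2 had the highest median of these 6, at 2143 CPM in dendrites and 363 in somas. The other pyramidal markers had medians of 9.23 to 49.1 and 2.00 to 48.3. The 6 astrocyte markers summed to 0 to 653.5 CPM in dendrites (median 193.1) and 0 to 507.9 in somas (median 62.15). The 6 microglial markers summed to 0 to 377.6 and 0 to 9.724, and the 6 oligodendrocyte markers to 0 to 176.7 and 0.0933 to 136.7. The 6 endothelial markers summed to 0 to 99.15 and 0 to 129.9, and Cldn5 among them was at 0 in all libraries. The part of these differences in the results was not tested.

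The libraries were primed on poly-A tails, so that reads lie near 3′ ends, and for orientation the last 30 bases of 4 of the genes are given from GENCODE on GRCm38, each the end of the 3′UTR in the final exon, on the sense strand. Fmr1 and Purb were chosen for the largest and the smallest difference between compartments, and Purg and Stau1 for their isoform shares. Capitals mark the poly(A) signal AATAAA or ATTAAA, which was searched on the sense strand only.
Fmr1, chrX:68717934-68717963 (+): ttaaaaagttgcacttatgaaaaagcaaaa
Purb, chr11:6467599-6467628 (-): caAATAAAgtatgcggaaaagtgaatgaca
Purg, chr8:33417438-33417467 (+): tgacaatccAATAAActggtttatatgtgt
Stau1, chr2:166947549-166947578 (-): cagaacATTAAAggacctacaaatacacca
Among 45115 annotated coding transcripts, 43.9% had AATAAA within their last 30 bases and a further 10.4% had only ATTAAA. The Fmr1 window held neither, which says only that these letters are absent there. The deposited features carry numbers but no positions, so a feature could not be matched to an annotated end.

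Of the fragile X family, Fmr1 had the largest difference between compartments. The gene spans chrX:68678541-68717963 and has 16 to 17 exons in its coding transcripts. Across the 16 dendrites its lowest, median and highest levels were 0, 1.20 and 78.9 CPM, against 0.217, 50.4 and 129 CPM in the somas. The ranges overlapped, but 14 of 16 neurons had the higher level in the soma, which at least 14 neurons did in 5.26% of genes. On 3′UTRs, only the dendrites of neurons 11 and 14 held more than 5 reads of Fmr1, with 303 and 147 reads. On exons, those of neurons 5, 10, 11, 13 and 14 did, with 26, 156, 303, 145 and 84 reads. In neuron 14 the soma was among the lowest, at 0.3 CPM, against 78.9 CPM in its dendrites. The log2 difference of dendrites over somas was -5.16 (SE 1.35, n = 16 neurons), an estimated 35.8-fold higher level in somas, with an adjusted p of 0.0203 in edgeR's quasi-likelihood test. Fmr1 was the 1 gene of the 10 that was called higher in somas, where 5.71% of the 10880 genes tested were, and 0 of the 10 were called higher in dendrites, where 0.827% were. At an unadjusted p under 0.05, 4 of the 10 were lower in dendrites, against 26.7% of all genes. The adjusted p of Fmr1 rose to 0.0547 without neuron 16, to 0.0671 without neurons 12, 15 and 16 together, and to 0.101 on exon counts, where 2.62% of genes were called higher in somas.

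Fxr1 and Fxr2 encode the autosomal relatives of FMRP, which bind RNA through the same kinds of domain. Fxr1 (chr3:34019943-34070322) ranged over 0, 1.14 and 189 CPM in dendrites (lowest, median, highest) and over 0, 26.7 and 191 CPM in somas. On combined 3′UTRs, the dendrites of neurons 10, 11 and 14 held 326, 222 and 53 reads, and no other dendrite held more than 10. On exons, those of neurons 5, 6 and 7 also held more, with 18, 16 and 32 reads. In the table of separate 3′ ends, the dendrites of neuron 3 held 90 reads on feature 2. The log2 difference of Fxr1 was -3.89 (SE 1.52), and its soma was higher in 10 of 16 neurons, with an adjusted p of 0.0910. On exon counts the difference was smaller, at -1.50 (SE 1.44, adjusted p = 0.507 in edgeR). Fxr2 (chr11:69632990-69653297) was at 0, 47.6 and 252 CPM in dendrites and at 38.0, 101 and 185 CPM in somas. Its soma was higher in 13 of 16 neurons and 7 dendrites lay below every soma, and the log2 difference was -2.66 (SE 1.17, adjusted p = 0.122). No test separated the log2 differences of the 3 family members from one another, with unadjusted p = 0.400 for Fmr1 against Fxr1 and p = 0.649 for Fmr1 against Fxr2 in exact sign-flip permutation tests.

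**Figure D1:**
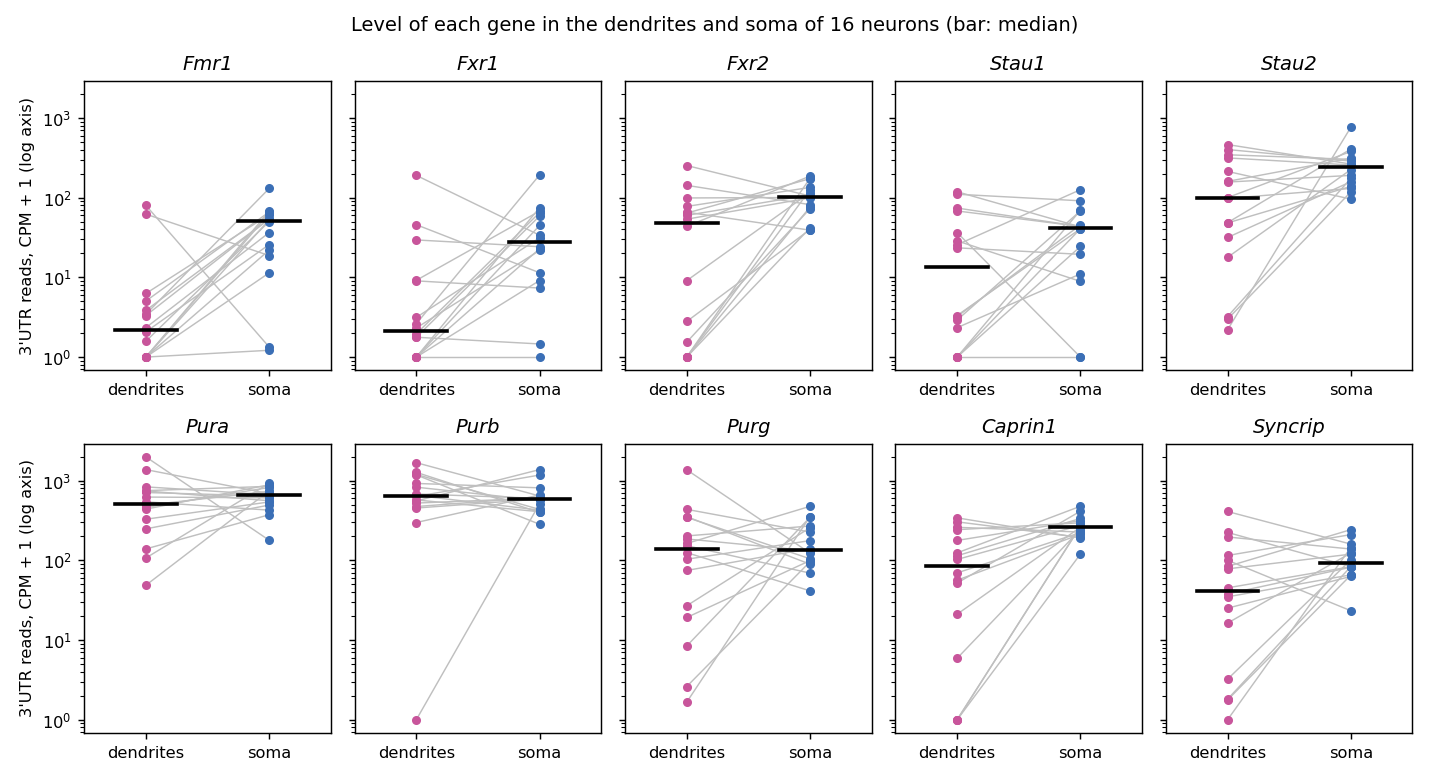
Level of each gene (3′UTR reads, CPM + 1, log axis) in the dendrites (left) and soma (right) of each of 16 neurons, with a grey line per neuron and a bar at the median. Fmr1 lies between 0 and 5.27 CPM in all but 2 dendrites, while Purb has medians of 641 and 591 CPM in dendrites and somas.

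The 2 Staufen genes differed in how regularly they were seen in dendrites. Stau1 (chr2:166947549-166996299) encodes the Staufen protein found in most cell types, and had reads in 12 dendrites and 14 somas. Its lowest, median and highest levels were 0, 12.4 and 117 CPM in dendrites and 0, 40.8 and 125 CPM in somas. The soma was higher in 8 neurons and the dendrites in 7, and the log2 difference of -1.84 (SE 1.43, adjusted p = 0.362) had an interval from -4.70 to 1.03. Stau2 (chr1:16228674-16520112), which encodes the Staufen protein enriched in brain, had reads in all 16 dendrites, at 1.20, 97.8 and 462 CPM, and in all 16 somas, at 94.8, 239 and 760 CPM. Its dendritic level was under 3 CPM in neurons 11, 12 and 15. The log2 difference was -1.61 (SE 0.803, adjusted p = 0.166), within 0.12 of the median of -1.49 over all genes tested. The difference between Stau1 and Stau2 did not pass (unadjusted p = 0.611, exact sign-flip permutation test).

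The Pur genes gave the smallest differences between compartments, and none of the 3 was called. Purb (chr11:6467599-6475917, a gene with a single exon) was at 0, 641 and 1676 CPM in dendrites and at 282, 591 and 1372 CPM in somas. Its 1 dendrite with no reads was that of neuron 15, and 9 of 16 neurons had the higher level in dendrites. The log2 difference of Purb was 0.07 (SE 0.55), with a 95% interval from -1.04 to 1.18 and an adjusted p of 0.942. Pura, which encodes the founding member of the family, was read in every library, at 47.7, 514 and 1981 CPM in dendrites and 177, 651 and 922 CPM in somas. Its log2 difference was -0.43 (SE 0.52, interval -1.47 to 0.61, adjusted p = 0.560). Purg (chr8:33386325-33417467) was at 0.662, 138 and 1365 CPM in dendrites and 40.4, 135 and 474 CPM in somas, with a log2 difference of -0.68 (SE 0.87, interval -2.43 to 1.07, adjusted p = 0.588). The 1365 CPM came from the dendrites of neuron 8, while those of neurons 14 and 15 held 3 and 1 reads. Relative to the median gene, the differences were 1.06 for Pura, 1.56 for Purb and 0.81 for Purg, and none of the 3 passed a test after the dendrites were rescaled by that median.

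**Figure D2:**
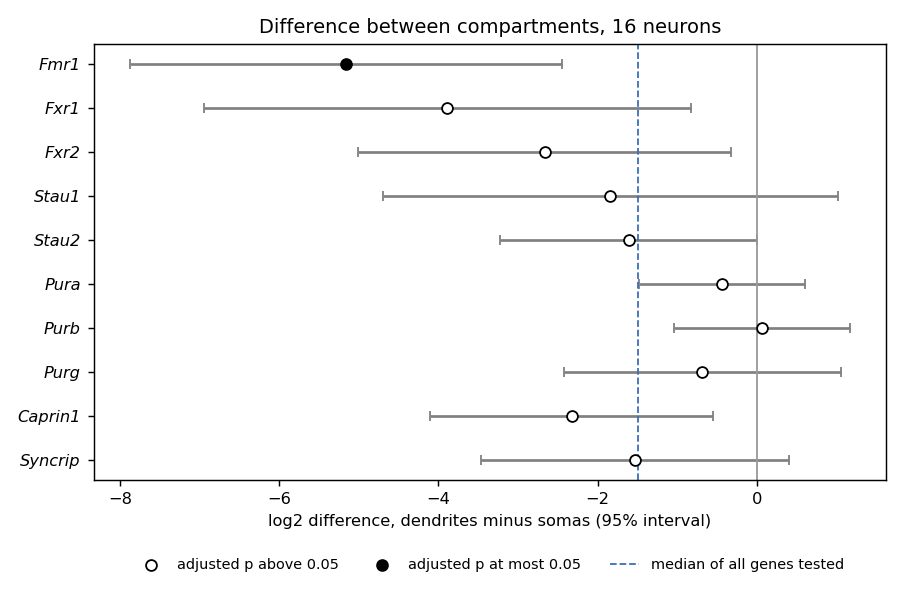
Log2 difference of dendrites minus somas for each gene, with its 95% interval, from edgeR with neuron as a block (16 neurons); the filled point passed an adjusted p of 0.05 and the dashed line is the median of all genes tested, at -1.49. Fmr1 lies farthest to the left at -5.16, and Pura, Purb and Purg lie to the right of the median gene.

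Caprin1 and Syncrip encode proteins that bind RNA in the same granules, Caprin1 as a partner of the stress granule protein G3bp1 and Syncrip as a cytoplasmic relative of the hnRNP proteins. Caprin1 (chr2:103762941-103797649) was at 0, 85.0 and 340 CPM in dendrites and at 118, 262 and 475 CPM in somas. Its soma was higher in 13 of 16 neurons, 10 dendrites lay below every soma, and the log2 difference was -2.32 (SE 0.89, adjusted p = 0.0841). Syncrip (chr9:88447009-88482574) was at 0, 40.5 and 408 CPM in dendrites and at 22.3, 91.2 and 241 CPM in somas, with a log2 difference of -1.53 (SE 0.96, adjusted p = 0.263). Its highest dendrite was that of neuron 15, with 617 reads, although only 4 of the 10 genes had reads there. When log2 differences were compared within neurons over all 45 pairs of the 10 genes, 1 pair passed: Purb exceeded Caprin1 by 2.39 (SD 2.42, n = 16) in an exact sign-flip permutation test (adjusted p over the 45 pairs = 0.0220). The difference was positive in 13 of 16 neurons.

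The dendritic read fraction was taken as the CPM in dendrites divided by the sum of the CPM of both compartments. It compares levels relative to each library's total and is not the share of a neuron's molecules. Its mean was lowest for Fmr1, at 14.1% ± 30.6 (SD, n = 15 neurons with 10 or more reads), and highest for Purb, at 51.0% ± 20.9 (SD, n = 16). Fmr1 lay under 5% in 10 of 15 neurons and above 50% in 2. Stau1 spread over the whole scale, with 35.1% ± 35.1 (SD, n = 15) and 7 neurons above 50%. Pura had no neuron under 5% and a mean of 43.8% ± 21.0 (SD, n = 16).

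**Figure D3:**
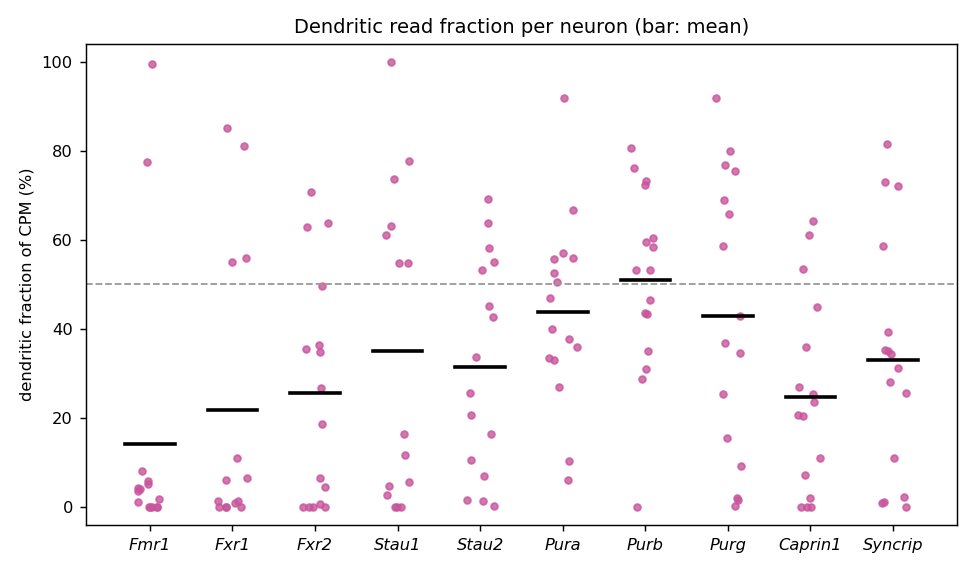
Dendritic fraction of CPM (percent) for each neuron with 10 or more reads of a gene in the 2 compartments, with the mean as a bar and 50% dashed. Fmr1 lies under 5% in 10 of 15 neurons, while the means of the Pur genes lie between 42.9% and 51.0%.

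By the criterion of at least 1 read in 15 of 16 dendrites, 5 of the 10 genes were detected in nearly every dendrite (Stau2, Pura, Purb, Purg and Syncrip), as were 17.1% of the genes tested. Fmr1 had reads in 10 dendrites, Fxr1 in 11, Fxr2 and Stau1 in 12 and Caprin1 in 13. At 10 or more reads, Pura and Purb were the 2 that still met it, as did 6.99% of the genes tested. The same 2 met it after each library was thinned to 646521 reads, as did 11.8%. Over the 13 neurons without 12, 15 and 16, Caprin1 also had reads in every dendrite, while Fmr1 had reads in 10. The 3 dendrites left out had 0 Caprin1 reads and stood apart partly by their reads on these 10 genes. The count over 13 neurons is therefore not a separate test of detection.

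Scaled instead to the ERCC spike-in of 14 neurons, which gives amounts per tube, all 10 genes were called lower in dendrites, as were 61.4% of genes. On that scale Fmr1 had a log2 difference of -7.19 and Purb one of -2.27. DESeq2 called 7 of the 10 higher in somas, all but Pura, Purb and Purg, where it called 46.2% of genes. The exact sign-flip permutation test over neurons called 5 (Fmr1, Fxr1, Fxr2, Stau2 and Caprin1), where it called 19.7% of genes, and 0 higher in dendrites, where it called 3.24%.

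Among separate 3′ ends, 5 of the 19 tested features were called higher in somas and 0 in dendrites, where 16.9% and 0.723% of all features were called. The 5 were Fmr1 feature 1 (log2 difference -6.30, adjusted p = 0.00808), Syncrip features 4 (-5.83, adjusted p = 0.0148) and 1 (-4.91, adjusted p = 0.0420), Caprin1 feature 3 (-4.15, adjusted p = 0.0243) and Stau2 feature 3 (-4.02, adjusted p = 0.0367), all in edgeR. Fmr1 feature 1 held 98.7% of the Fmr1 reads on features in somas. Without neurons 12, 15 and 16 only Fmr1 feature 1 was still called, with an adjusted p of 0.0375. That feature leaves out the 147 Fmr1 reads in the dendrites of neuron 14, of which 0 fell on feature 1 and 1 on feature 8. On combined 3′UTR reads of the same 13 neurons, Fmr1 had an adjusted p of 0.0671 in edgeR. For Syncrip, feature 4 held 3119 soma reads and 29 dendrite reads, while feature 2 held 2403 and 1370, of which 617 came from the dendrites of neuron 15, and had a log2 difference of -1.04 (adjusted p = 0.624).

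Isoform use was compared in 7 of the genes, as the share of reads on the higher-numbered of the 2 most-read features in each neuron. At an unadjusted p under 0.1 in an exact signed-rank permutation test, Purg and Stau1 differed between compartments, 2 of 7 against 8.44% of 3508 genes, and no gene passed an adjusted p of 0.05. For Purg, feature 2 took 0.656% of dendrite reads and 6.66% of soma reads on average (14 neurons), lower in dendrites in 12 neurons and higher in none (exact p = 0.000488, adjusted p = 0.285). In neuron 9 feature 2 had 0 of 2726 dendrite reads, which allows a share of up to 0.11%, against 290 of 4333 soma reads. Neuron 11 had 0 of 1737 against 147 of 975. Neuron 12 had the highest shares, with 9.2% in dendrites and 51.4% in its soma, and without it the means over 13 neurons were 0% and 3.22%. Among the 12 of these neurons other than 12 and 16, the soma share exceeded the limit set by the dendrite reads in 6. It lay above 0 but within that limit in 4, where a difference was not detectable at this depth, and it was 0 in the somas of the other 2.

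For Stau1, feature 2 took a mean of 39.1% of dendrite reads and 70.0% of soma reads in 6 neurons, lower in dendrites in 5 and equal in 1 (exact p = 0.0625, adjusted p = 0.949). This is the smallest p that 5 unequal neurons allow, and without neuron 3, 4, 5, 8 or 9 the smallest possible is 0.125, so that leaving one out cannot test it. The dendrite shares were 3.7%, 0.0%, 97.4%, 2.2%, 31.1% and 100.0% in neurons 3, 4, 5, 8, 9 and 13, beside 44.1%, 65.8%, 97.8%, 28.2%, 84.3% and 100.0% in their somas. Syncrip had 64.4% and 36.3% on feature 2 over 12 neurons, with 8 neurons up and 4 down (exact p = 0.126). Its exact p fell under 0.1 without neuron 3 (0.0664) and without neuron 5, 7 or 10 (0.0811 each). Without neuron 1 or 11 it rose to 0.240. For Fxr2, Stau2, Pura and Caprin1 the exact p was 0.489 or higher.

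**Figure D4:**
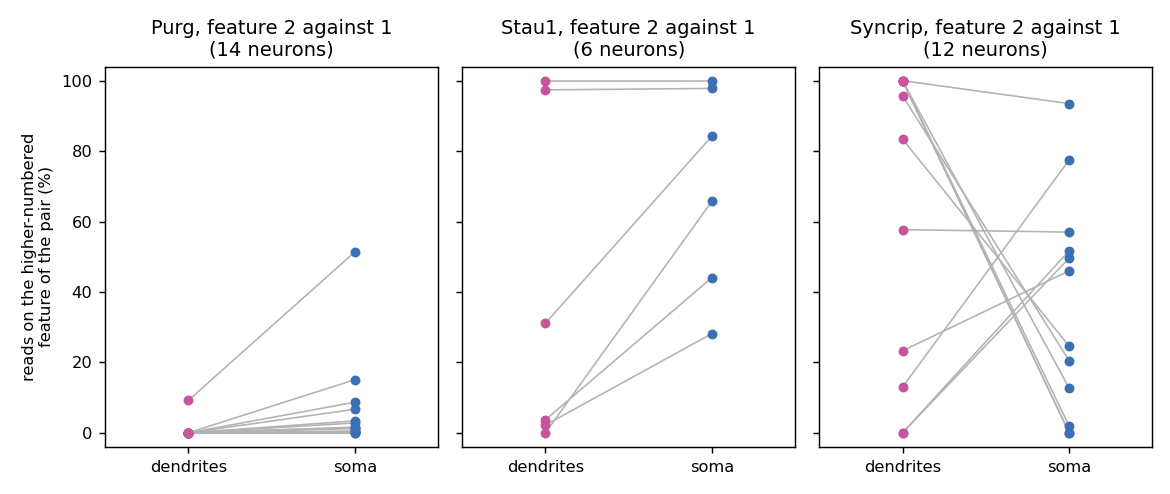
Share of reads (percent) on the higher-numbered of the 2 most-read 3′ end features in the dendrites and soma of each neuron, for Purg, Stau1 and Syncrip. In Purg 13 of 14 dendrites lie at 0, in Stau1 the soma share is the higher in 5 of 6 neurons, and in Syncrip lines run both ways.

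The number of amplification rounds was compared next, since it divides the neurons. None of the 10 genes passed the test for a compartment difference that varied with the rounds (0 with an unadjusted p under 0.05 in edgeR's interaction test, lowest adjusted p = 1), and 0 of 10880 genes were called, with 288 at an unadjusted p under 0.05. Fmr1 was lower in dendrites in 4 of 4 neurons with 3 rounds and in 10 of 12 with 2 rounds. Within the 12 neurons of 2 rounds its adjusted p was 0.0824. With only 4 neurons of 3 rounds the estimates were wide: the log2 difference of Stau1 was 3.21 higher with 3 rounds than with 2 (SE 2.77) and that of Stau2 2.45 higher (SE 1.73). Within 2 rounds Stau1 was at -3.09 and Stau2 at -2.34, and within 3 rounds at 0.36 and 0.30, none of them called.

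Companion genes of these proteins were read from fixed lists, whose medians stand beside -1.72 for the 10 genes and -1.49 for all genes. Of 22 other transport granule proteins tested, 2 were called higher in somas and 0 in dendrites (median log2 difference -1.96). They were Tardbp, which encodes the RNA-binding protein TDP-43 (-4.99, adjusted p = 0.0124, soma higher in 16 of 16 neurons), and Fam98a (-5.08, adjusted p = 0.0316). Of 17 Staufen-mediated decay and exon junction factors, 3 were called higher in somas (median -2.49), among them Upf2, a nonsense-mediated decay factor, at -6.73 (adjusted p = 0.0162), and Adar, an adenosine deaminase of double-stranded RNA, at -3.44 (adjusted p = 0.0481). Of 11 genes listed as relatives of Syncrip or of proteins with RGG motifs, 2 were called higher in somas (median -1.66). They were Hnrnpr (-4.32, adjusted p = 0.0191) and Rbmx (-4.29, adjusted p = 0.0407).

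Of 17 motor subunits, Dync1i2, a dynein intermediate chain, was called higher in somas (-3.61, adjusted p = 0.0319, median of the list -0.70). None of 17 FMRP partners was called (median -0.91, and 3 had an unadjusted p under 0.05). Those 3 were Fbxo11 (-4.15), Atxn2 (-2.67) and Ybx1, a cold-shock protein that packages mRNA (1.21, dendrites higher in 14 of 16 neurons). Among 29 mRNA cargoes of these proteins (median -0.41), Map2, whose mRNA is the textbook dendritic transcript, was called higher in dendrites (2.66, adjusted p = 0.00202, 14 of 16 neurons). Over all 113 companion genes tested, 8 were called higher in somas and 1 in dendrites. These are 7.08% and 0.885% of them beside 5.71% and 0.827% of all genes, so that the pooled lists do not stand out by their counts. Single lists differed, from 0 of 17 FMRP partners and 0 of 29 cargoes higher in somas to 3 of 17 Staufen-mediated decay and exon junction factors. Whether a single list differed from all genes was not tested.

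The genes whose levels followed a member most closely over the 32 libraries, by Spearman's rho and given as a description across libraries that share depth and compartment, were Slc24a5 (0.829) and A630007B06Rik (0.780) for Fmr1, Anp32b (0.810) and AW209491 (0.764) for Fxr1, and Paip2b (0.796) and Fubp1 (0.786) for Fxr2. For the Staufen genes they were Gdap1l1 (0.738) and Ppp5c (0.711) beside Stau1, and Xpnpep1 (0.694) and Vapa (0.665) beside Stau2. For the Pur genes they were 2610002M06Rik (0.738) and Rdh14 (0.694) beside Pura, Serf1 (0.704) and Tsr2 (0.642) beside Purb, and Lrrc8d (0.729) and Map3k12 (0.708) beside Purg. Caprin1 was followed by AK148964 (0.801) and Zfp871 (0.794), and Syncrip by Anapc4 (0.661) and Snrpa (0.645).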

How the data were processed

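The authors trimmed the reads, aligned them to mm10 with STAR (2.4.0 in the submitters' processing notes) and counted uniquely mapped reads by strand with VERSE. The deposited values are raw read counts without normalization or molecular identifiers, on the combined 3′UTRs of each gene, on single 3′ ends (windows of 500 nt, ends nearer than that joined), and on exons with 92 ERCC spike-ins. Depth per library is given in the report. The precision of a difference was taken from the spread between neurons, and limits for counts of 0 cover counting error only.

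Genes and features that had 1 or more reads in 16 or more libraries were compared with edgeR 4.0.16 in R 4.3.3 (TMM, robust quasi-likelihood test, neuron as a block) and Benjamini-Hochberg adjustment over all genes tested, at an adjusted p of at most 0.05. CPM are TMM-scaled. Exact sign-flip tests used log2(CPM + 1). SciPy 1.17.1, pandas 2.3.3 and NumPy 2.4.6 under Python 3.11 gave the remaining values, and DESeq2 1.42.0 was an alternative. On simulated data with 200 of 10880 genes changed by a log2 of 4, edgeR called 38% of the changed genes and 0 of the others.

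Both compartments came from the same cell. The correlation across genes of their deviations from the compartment mean averaged 0.0887 ± 0.0772 within neurons (SD, n = 16) and -0.00559 ± 0.0526 between neurons (SD, n = 240), and 0 of 240 library pairs within a compartment were identical. Members, companion lists and the named genes (all members, the called genes of each list or else its 3 smallest p, and the 2 most alike genes per member) were chosen with earlier results of these data known. The gene Rtraf of the lists was not matched, and 1 called gene of the lists is not reported here. Alternatives for the test, scaling, filter, block, exon counts, rounds and left-out neurons are given in the closing section.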

Additional observations from a re-analysis of the deposited data

Results flagged for a closer look

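The difference of Syncrip between dendrites and soma in neuron 4 stood apart from those of the other 3 neurons with 3 rounds of amplification. On the log2(CPM + 1) scale it was -5.199, from 1 read in its dendrites, and its gap to the nearest neuron was 0.897 of the range of the 4, above the 95% limit of 0.829. Chance flags about 1 in 20 such groups, and 10 genes were examined.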

How the results depend on the processing

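The count of the 10 genes called higher in somas, 1 as reported, was 7 with DESeq2, 10 with ERCC scaling, 5 with the exact sign-flip test, and 0 without the replicate block, within 2 rounds, within 3 rounds, with dendrites rescaled to the median gene, with no filter beyond 1 read, on exon counts, and without neurons 12, 15 and 16; leaving out 1 neuron gave 0 to 1. None of these called any of the 10 higher in dendrites. Unblocked (no replicate block), Fmr1 had a log2 difference of -2.12 (adjusted p = 0.302). The sign-flip test and the 13 neurons were chosen after seeing the data.

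Over all genes, those called higher in somas and in dendrites, 621 and 90 as reported, were 5029 and 463 with DESeq2, 77 and 157 without the replicate block, 354 and 43 within 2 rounds, 1 and 4 within 3 rounds, 6681 and 16 with ERCC scaling, 92 and 548 with dendrites rescaled, 143 and 15 with no filter, 98 and 50 without neurons 12, 15 and 16, and 2144 and 353 by sign flips. With RLE scaling 1008 were higher in somas, with a filter of 10 reads 181, and on exon counts 257. Leaving out 1 neuron gave 130 (without neuron 16) to 990 (without neuron 5) and 56 (neuron 4) to 120 (neuron 15).

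The 5 features called higher in somas became 13 with DESeq2, 9 with RLE scaling, 0 without the replicate block, 0 within 3 rounds, 1 without neurons 12, 15 and 16, and 2 to 8 with 1 neuron left out (3 without neuron 1, 4, 12 or 15, 2 without neuron 16 and 8 without neuron 5). The 2 genes with an isoform difference became 1 within 2 rounds and 1 to 3 with 1 neuron left out. The 5 genes read in 15 dendrites became 2 at 10 reads and 2 after thinning. The 8 companion genes higher in somas became 56 with DESeq2, 17 with RLE scaling and 0 without the replicate block, and the 1 higher in dendrites became 8 with DESeq2, 3 without the block and 5 on exon counts.

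The directions that reversed under these alternatives were all of genes, features or isoform shares that had not passed as reported. Within 3 rounds the log2 differences were 0.17 for Pura, 0.47 for Purg, 0.36 for Stau1 and 0.30 for Stau2, and for features 0.73 (Caprin1 1), 0.20 (Pura 2), 0.18 (Purb 1), 0.56 (Purg 1), 1.26 (Stau1 1) and 1.41 (Stau2 1). With dendrites rescaled they were 1.06 for Pura and 0.81 for Purg. Purb was -0.22 with DESeq2, -0.22 with RLE, -2.27 with ERCC scaling, -0.014 with no filter and -0.29 by sign flips. Without the block Purg was 0.25, and features Purg 1, Stau2 4 and Syncrip 2 were 0.17, 0.61 and 0.45. Without neurons 12, 15 and 16 the features Purb 1 and Stau2 4 were 0.32 and 0.13. Leaving out 1 neuron gave -0.54 to 0.017 for Pura and -0.048 to 0.54 for Purb, and isoform differences of -7.87 to 6.16 points for Stau2, -12.7 to 1.84 for Caprin1 and -0.438 to 0.184 for Fxr2; within 2 rounds Stau2 was 16.7. The causes were not tested. Fmr1 had a median of 1.5 reads in dendrites as deposited; thinned to 646521 reads per library it had a median of 0.5 reads in dendrites and 29.5 in somas.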
